A study of Mus musculus with 20 samples.

Results

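Toll-like receptors (TLRs) are the membrane receptors with which macrophages recognise microbial lipids, proteins and nucleic acids. The 10 mouse genes Tlr1, Tlr2, Tlr3, Tlr4, Tlr5, Tlr6, Tlr7, Tlr8, Tlr9 and Tlr13 were chosen by symbol, and all 10 were found among the 78409 genes of the count table. They were read in 5 classes of culture and as 2 sets of receptors. The 5 endosomal receptors are Tlr3, Tlr7, Tlr8, Tlr9 and Tlr13, which bind nucleic acids, and the 5 surface receptors are Tlr1, Tlr2, Tlr4, Tlr5 and Tlr6.

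The cultures were bone marrow-derived macrophages from female C57BL/6J mice, exposed to fractions of the airway lavage fluid of other mice with ovalbumin-induced airway inflammation. The fluid donors were RNY1+/+ or RNY1-/-, the latter carrying a CRISPR deletion of the gene for the small noncoding Y RNA RNY1, and mice were 7 to 16 weeks old. The macrophages were wild-type in every group, so the genotype in a group's name is that of the fluid donor. Size-exclusion chromatography split each fluid into a fraction enriched in extracellular vesicles (EVFx, column fractions 1 to 4) and a fraction enriched in protein (ProteinFx, column fractions 9 to 20). Both were kept for 5 days at 4 °C.

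The 20 libraries form 5 groups of 4. The PBS group received buffer alone, the RNY1+/+ EVFx and RNY1-/- EVFx groups received vesicle fractions at 35000000 particles per µL, and the RNY1+/+ ProteinFx and RNY1-/- ProteinFx groups received protein fractions at 0.75 µg per µL. All groups shared the culture: 5 days with L929-conditioned medium, 200000 cells per well, use on day 7, washing, and Opti-MEM without serum during treatment. Particle number set the vesicle dose and protein mass the other, so the dose of the fractions differs in kind, and a fraction may also carry other material from the inflamed airway. It is not stated if libraries sharing a group are separate cultures, macrophage donors or pools of fluid, so every p-value measures the spread between these samples. All 20 libraries carry the same batch label.

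Transcripts were counted at their 3′ ends with molecular identifiers, and a level is given in CPM, the count scaled to the total of its library. Totals ran from 2510005 to 8277366 counts per library with a median of 5456425, so 3 counts, taken as the floor of detection, equal 0.362 to 1.20 CPM. Floors and intervals cover counting error and, for the tests, the spread between libraries.

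The macrophage label was checked against markers: 9 of 9 macrophage markers had a mean of at least 3 CPM, the most abundant being lysozyme Lyz2 at 5598 CPM. Of 10 neutrophil markers 4 reached that level, led by S100a8 at 152 CPM, while Ly6g, Mpo and Elane stayed at or under the floor in every library. Of 8 dendritic cell markers only Bst2 did, at 393 CPM, and Flt3, Zbtb46, Xcr1, Clec9a and Cd209a stayed at or under the floor. Of 6 eosinophil markers only Ccr3 did, at 7.93 CPM, with Epx, Prg2, Ear1 and Ear6 at or under the floor. Among 6 B cell markers only Ighm did, at 3.92 CPM, and among 7 T cell, 5 mast cell and basophil, and 6 erythroid markers 0 did. The most abundant of those 3 lists were Cd4 at 2.53 CPM, Mcpt8 at 0.0765 CPM and Hba-a1 at 0.0562 CPM. Of 6 fibroblast markers 3 did, led by Col1a2 at 12.6 CPM, and of 9 epithelial markers 2 did, led by Krt18 at 7.69 CPM. The 2 genes named Rny1 held at most 1.5 counts in any library, and the deletion was in the fluid donors, so these libraries do not test the genotype.

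Some libraries stood apart. PBS replicate 3 differed from PBS replicates 1 and 2 by a median of 0.46 and 0.47 log2 units per gene, against 0.13 between those replicates. The RNY1-/- ProteinFx libraries formed pairs: replicates 1 and 2 differed by a median of 0.14 and replicates 3 and 4 by 0.18, but members of different pairs by 0.32 to 0.39. In both cases the difference followed base composition: across 10301 genes, which are not independent replicates, Spearman's rho with GC content was -0.643 for PBS replicate 3 against its group and -0.579 for replicates 3 and 4 minus 1 and 2. Fold changes between groups also followed GC content, with rho of -0.0934 for RNY1+/+ EVFx, -0.424 for RNY1-/- EVFx, -0.457 for RNY1+/+ ProteinFx and -0.495 for RNY1-/- ProteinFx against PBS. Of the 8 receptors tested, Tlr2 (49.3%) has a longest transcript above the median GC content of 48.8% over the genes tested in RNY1+/+ EVFx against PBS, and the others lie below it, from 39.4% (Tlr4) to 45.6% (Tlr6). Values after removing each library's trends with GC content and transcript length are therefore given beside the main ones where a call or a direction depends on them.

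As background, surface TLRs bind mostly microbial lipids and proteins: TLR2 pairs with TLR1 or TLR6 to bind lipopeptides, TLR4 with MD-2 and CD14 binds lipopolysaccharide, and TLR5 binds flagellin. Endosomal TLRs meet nucleic acids released from particles taken up by the cell, and depend on the chaperone UNC93B1 to leave the endoplasmic reticulum and on lysosomal proteases to mature. Both sets signal through MYD88 or TRIF to NF-kB and interferon regulatory factors, and in resting macrophages the abundance of each receptor helps set what the cell can answer to.

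Of the 10 receptors, 8 were measurable in every library and passed the filter on low counts in each comparison, 4 endosomal and 4 surface. Tlr9, the receptor for CpG DNA, had 17 counts in all 20 libraries together and at most 4 in any library, in RNY1+/+ EVFx replicate 2. Tlr5 had 3 counts in all and at most 1 per library. Neither was tested, and at this depth a difference between groups was not detectable for either. Tlr11 and Tlr12, 2 further mouse TLRs outside the set of 10, were not tested in any comparison either.

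Each treated group was compared with PBS, which asks how the receptor repertoire differs after exposure to an airway fraction. The 4 comparisons share the PBS libraries, so they are not independent of each other. A gene was called when edgeR's quasi-likelihood test gave a Benjamini-Hochberg adjusted p under 0.05 over all genes and the log2 fold change exceeded 1 in size. In RNY1+/+ EVFx against PBS, 3 of the 8 tested receptors rose (Tlr3, Tlr1 and Tlr2) and 2 fell (Tlr8 and Tlr13), while 8.24% of all tested genes rose and 8.20% fell. All 8 had an adjusted p under 0.05, against 44.5% of genes. In RNY1-/- EVFx, 2 rose (Tlr1 and Tlr2) and 1 fell (Tlr13), against 9.02% and 13.5% of genes, and 6 had an adjusted p under 0.05, against 58.3%. In RNY1+/+ ProteinFx, 3 rose (Tlr3, Tlr1 and Tlr2) and 0 fell, against 8.96% and 12.4% of genes, and 7 had an adjusted p under 0.05, against 55.2%. In RNY1-/- ProteinFx, 2 rose (Tlr3 and Tlr1) and 0 fell, against 6.31% and 7.99%, and 6 had an adjusted p under 0.05, against 35.7%. With a library left out, the adjusted p of Tlr7, Tlr13 and Tlr2 in that comparison reached 0.0992, 0.117 and 0.0854. The shares of receptors that rose exceeded the background in all 4 comparisons, but they rest on 8 receptors, and no test was run over the set.

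**Figure D1:**
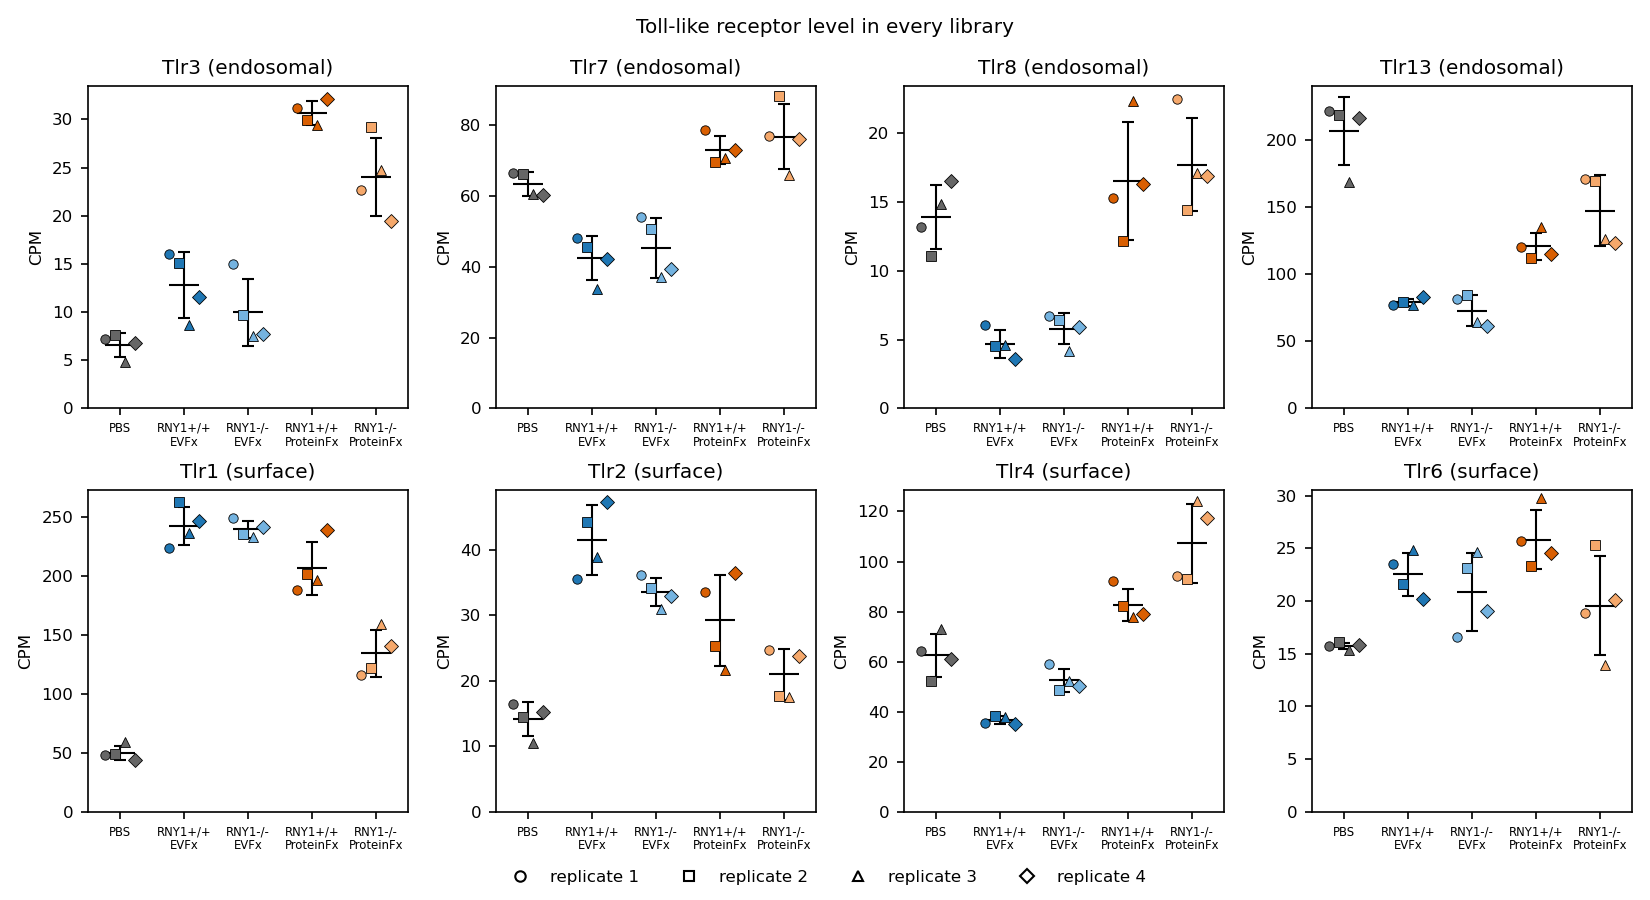
Level of each of the 8 measurable receptors in every library (vertical axes, CPM, from 0), by group, with the mean (bar) and SD (whiskers) of 4 libraries and a symbol for each replicate. Tlr1 sits between 44.3 and 59.0 CPM in PBS and between 116 and 263 CPM in the treated groups, whereas Tlr13 is highest in PBS.

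The receptor for double-stranded RNA, Tlr3, was read at 7.17, 7.57, 4.80 and 6.76 CPM in PBS replicates 1 to 4. It stood at 16.03, 15.1, 8.61 and 11.6 CPM in RNY1+/+ EVFx and at 14.97, 9.68, 7.51 and 7.74 CPM in RNY1-/- EVFx. The protein fractions gave 31.2, 29.9, 29.4 and 32.1 CPM in RNY1+/+ ProteinFx and 22.7, 29.2, 24.7 and 19.5 CPM in RNY1-/- ProteinFx. Every library of both ProteinFx groups lay above every library of the other 3 groups, and the RNY1+/+ EVFx libraries lay above PBS, whereas RNY1-/- EVFx overlapped PBS through replicate 3. In rising order the means were 6.58 ± 1.23 CPM (SD, n = 4) in PBS, 9.98 ± 3.47 in RNY1-/- EVFx, 12.8 ± 3.41 in RNY1+/+ EVFx, 24.01 ± 4.10 in RNY1-/- ProteinFx and 30.7 ± 1.23 in RNY1+/+ ProteinFx, and the EVFx groups overlapped each other. Tlr3 rose in RNY1+/+ ProteinFx by 2.37 ± 0.16 (log2, SE; 5.18-fold; adjusted p = 3.0e-07) and in RNY1-/- ProteinFx by 1.92 ± 0.19 (3.78-fold; adjusted p = 3.8e-05). These calls held with GC and length trends removed, at 1.82 and 1.48. In RNY1+/+ EVFx it rose by 1.14 ± 0.22 (2.21-fold; adjusted p = 0.0016), a call that sat at the fold limit and was lost with library totals in place of TMM scaling (0.96) and with counts thinned to the smallest library (0.998). RNY1-/- EVFx gave 0.85 ± 0.25 (adjusted p = 0.013), below the fold limit, and 0.37 (adjusted p = 0.27) with the trends removed. In bulk samples such as these, fewer or more cells of a type and less or more RNA per cell cannot be told apart.

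The sensors of single-stranded RNA, Tlr7 and Tlr8, lie side by side on the X chromosome, 40599 bases apart in GRCm38, and both were lower after vesicle fractions than after protein fractions. Tlr8 was read at 13.2, 11.05, 14.9 and 16.5 CPM in PBS. It stood at 6.08, 4.504, 4.61 and 3.56 CPM in RNY1+/+ EVFx and at 6.70, 6.40, 4.19 and 5.89 CPM in RNY1-/- EVFx. All 8 vesicle libraries lay below all 4 PBS libraries. With RNY1+/+ ProteinFx the values were 15.3, 12.2, 22.4 and 16.3 CPM, and with RNY1-/- ProteinFx 22.5, 14.4, 17.1 and 16.9 CPM, overlapping PBS in both. Tlr8 fell in RNY1+/+ EVFx, with a log2 fold change of -1.38 ± 0.20 (2.61-fold lower; adjusted p = 0.00022). In RNY1-/- EVFx the value of -0.99 ± 0.20 (adjusted p = 0.0013) missed the fold limit narrowly. It passed with library totals (-1.24), with 20 libraries fitted together (-1.01) and with counts thinned to the smallest library (-1.63). With the GC and length trends removed it passed at -1.46. It also passed without PBS replicate 1 (-1.01) or 2 (-1.09) or RNY1-/- EVFx replicate 1 (-1.06), 2 (-1.02) or 4 (-1.01). The ProteinFx groups gave 0.42 ± 0.20 and 0.41 ± 0.19 against PBS, with adjusted p of 0.097 and 0.11, and -0.12 and -0.02 with the trends removed.

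Tlr7 followed the same order with smaller steps. Its levels were 66.4, 66.1, 60.4 and 60.3 CPM in PBS, 48.1, 45.4, 33.8 and 42.2 CPM in RNY1+/+ EVFx, and 54.1, 50.6, 37.2 and 39.2 CPM in RNY1-/- EVFx. Both vesicle groups lay wholly below PBS. RNY1+/+ ProteinFx gave 78.5, 69.4, 70.6 and 73.0 CPM, all above PBS, and RNY1-/- ProteinFx gave 76.9, 88.3, 65.7 and 76.0 CPM, of which replicate 3 fell within the PBS range. Tlr7 was not called against PBS in any group: its log2 fold changes were -0.40 (adjusted p = 0.019) in RNY1+/+ EVFx, -0.24 (0.13) in RNY1-/- EVFx, 0.37 (0.0084) in RNY1+/+ ProteinFx and 0.35 (0.036) in RNY1-/- ProteinFx. The direction in the ProteinFx groups depended on the GC and length trends, which were removed together. The values were then -0.17 (adjusted p = 0.28) and -0.09 (0.69). In RNY1-/- EVFx the same step gave -0.71 (0.0019).

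Tlr13, which recognises bacterial ribosomal RNA in mice, was the endosomal receptor that fell after both vesicle fractions. PBS libraries held 221, 218, 168 and 216 CPM. Those of RNY1+/+ EVFx held 77.2, 78.8, 76.98 and 82.6 CPM and those of RNY1-/- EVFx 81.4, 84.1, 64.5 and 61.2 CPM. Every vesicle library lay far below every PBS library, and the vesicle groups overlapped each other. With RNY1+/+ ProteinFx the levels were 120, 112, 135 and 115 CPM, between the vesicle groups and PBS with no overlap. RNY1-/- ProteinFx gave 170, 170, 126 and 123 CPM, with replicates 1 and 2 just above the lowest PBS library, replicate 3. The fall was -1.21 ± 0.11 in RNY1+/+ EVFx (2.31-fold lower; adjusted p = 5.7e-06) and -1.26 ± 0.13 in RNY1-/- EVFx (2.40-fold lower; adjusted p = 1.7e-05). ProteinFx groups were lower by less than the fold limit, at -0.61 ± 0.12 (adjusted p = 0.0014) for RNY1+/+ and -0.42 ± 0.14 (0.039) for RNY1-/-, and the RNY1+/+ ProteinFx value passed the limit at -1.05 with GC and length trends removed.

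Summed markers of other cells also differed between groups, but not all in the direction of the receptors that were lower after vesicle fractions. Neutrophil and eosinophil means were lower in both vesicle groups than in both protein groups. The B cell, T cell and fibroblast means were highest in PBS, the dendritic mean was lowest in PBS, and the epithelial means had no common direction. The summed neutrophil list was 328 to 364 CPM in PBS, 156 to 221 CPM in RNY1+/+ EVFx, 198 to 279 CPM in RNY1-/- EVFx, 230 to 349 CPM in RNY1+/+ ProteinFx and 272 to 402 CPM in RNY1-/- ProteinFx. The summed eosinophil list, nearly all Ccr3, was 7.65 to 13.6 CPM in PBS, 0.801 to 1.46 CPM in RNY1+/+ EVFx, 1.31 to 2.46 CPM in RNY1-/- EVFx, 14.7 to 21.4 CPM in RNY1+/+ ProteinFx and 12.7 to 17.1 CPM in RNY1-/- ProteinFx. The summed B cell list was 9.84 to 16.2 CPM in PBS and had a mean of 2.74 to 4.67 CPM in the treated groups. The summed dendritic list, nearly all Bst2, had a mean of 213 CPM in PBS, 610 in RNY1+/+ EVFx, 335 in RNY1-/- EVFx, 431 in RNY1+/+ ProteinFx and 383 in RNY1-/- ProteinFx. The summed macrophage list had a mean of 12153 CPM in PBS and 9298 to 11145 CPM in the treated groups, but its members moved apart: Lyz2, its largest, had 8416 CPM in PBS and 4578 to 5333 CPM in the treated groups, whereas Adgre1 had 859 CPM in PBS and 2422 to 3203 CPM. The part of these shifts in the receptor levels was not tested.

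Among surface receptors Tlr1, a partner of TLR2 in binding triacylated lipopeptides, showed the largest rise of the 8 receptors after both vesicle fractions. PBS libraries held 48.0, 49.0, 59.0 and 44.3 CPM. RNY1+/+ EVFx held 224, 263, 237 and 247 CPM and RNY1-/- EVFx 249.5, 236, 233 and 242 CPM. All vesicle libraries thus lay above all PBS libraries by a wide margin, and their groups overlapped. RNY1+/+ ProteinFx gave 188, 202, 197 and 239 CPM, overlapping the vesicle groups, and RNY1-/- ProteinFx gave 116, 122, 160 and 141 CPM, above PBS and below every other treated library. The rises were 2.46 ± 0.11 in RNY1+/+ EVFx (5.49-fold; adjusted p = 4.1e-08), 2.51 ± 0.11 in RNY1-/- EVFx (5.68-fold; adjusted p = 3.0e-08), 2.22 ± 0.13 in RNY1+/+ ProteinFx (4.66-fold; adjusted p = 9.7e-08) and 1.499 ± 0.152 in RNY1-/- ProteinFx (2.83-fold; adjusted p = 4.6e-05). All 4 calls held with GC and length trends removed, at 2.27, 2.22, 1.88 and 1.21.

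Tlr2, the shared subunit of the lipopeptide receptors, was read at 16.4, 14.5, 10.5 and 15.3 CPM in PBS. RNY1+/+ EVFx gave 35.5, 44.2, 38.8 and 47.4 CPM and RNY1-/- EVFx 36.1, 34.1, 31.0 and 33.0 CPM. Protein fractions gave 33.5, 25.3, 21.6 and 36.4 CPM for RNY1+/+ and 24.7, 17.8, 17.5 and 23.9 CPM for RNY1-/-. Every treated library exceeded every PBS library, with RNY1-/- ProteinFx closest to PBS. Tlr2 rose by 1.72 ± 0.15 in RNY1+/+ EVFx (3.29-fold; adjusted p = 5.2e-06), by 1.48 ± 0.15 in RNY1-/- EVFx (2.79-fold; adjusted p = 9.7e-06) and by 1.22 ± 0.20 in RNY1+/+ ProteinFx (2.33-fold; adjusted p = 0.00045). In RNY1-/- ProteinFx the value was 0.63 ± 0.19 (adjusted p = 0.029), below the fold limit.

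Tlr6, the other partner of TLR2, ranged from 15.3 to 16.1 CPM in PBS and from 13.9 to 29.8 CPM in the treated groups. RNY1+/+ EVFx, RNY1-/- EVFx and RNY1+/+ ProteinFx lay above PBS without overlap, and RNY1-/- ProteinFx overlapped it. Log2 fold changes were 0.69 (adjusted p = 0.00066), 0.64 (0.0029), 0.88 (0.00015) and 0.40 (0.087) in that order, so Tlr6 was not called in any group. Tlr1 and Tlr6 lie 18467 bases apart on chromosome 5 in GRCm38, and each had a fractional count, the mark of reads shared with another locus, in 8 of 20 libraries, so a small part of their counts cannot be assigned to either gene alone.

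Tlr4, the lipopolysaccharide receptor, was the surface receptor that was lower in a vesicle group than in PBS. It was read at 64.1, 52.2, 73.0 and 61.0 CPM in PBS. RNY1+/+ EVFx gave 35.4, 38.3, 37.8 and 35.0 CPM and RNY1-/- EVFx 59.1, 48.7, 52.2 and 50.1 CPM. The RNY1+/+ EVFx libraries lay below all others, and RNY1-/- EVFx overlapped PBS. With protein fractions the levels were 92.1, 82.1, 77.9 and 78.9 CPM for RNY1+/+ and 94.3, 93.2, 124 and 117 CPM for RNY1-/-, each group wholly above the one before it. Against PBS the log2 fold changes were -0.59 ± 0.12 (adjusted p = 0.0019) in RNY1+/+ EVFx, -0.01 ± 0.12 (0.96) in RNY1-/- EVFx, 0.58 ± 0.12 (0.0022) in RNY1+/+ ProteinFx and 0.85 ± 0.16 (0.0027) in RNY1-/- ProteinFx, all within the fold limit. With GC and length trends removed they were -0.70, -0.47 (adjusted p = 0.0018), 0.03 (0.81) and 0.37. RNY1-/- ProteinFx passed the limit at 1.08 when only its replicates 3 and 4 were used.

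**Figure D2:**
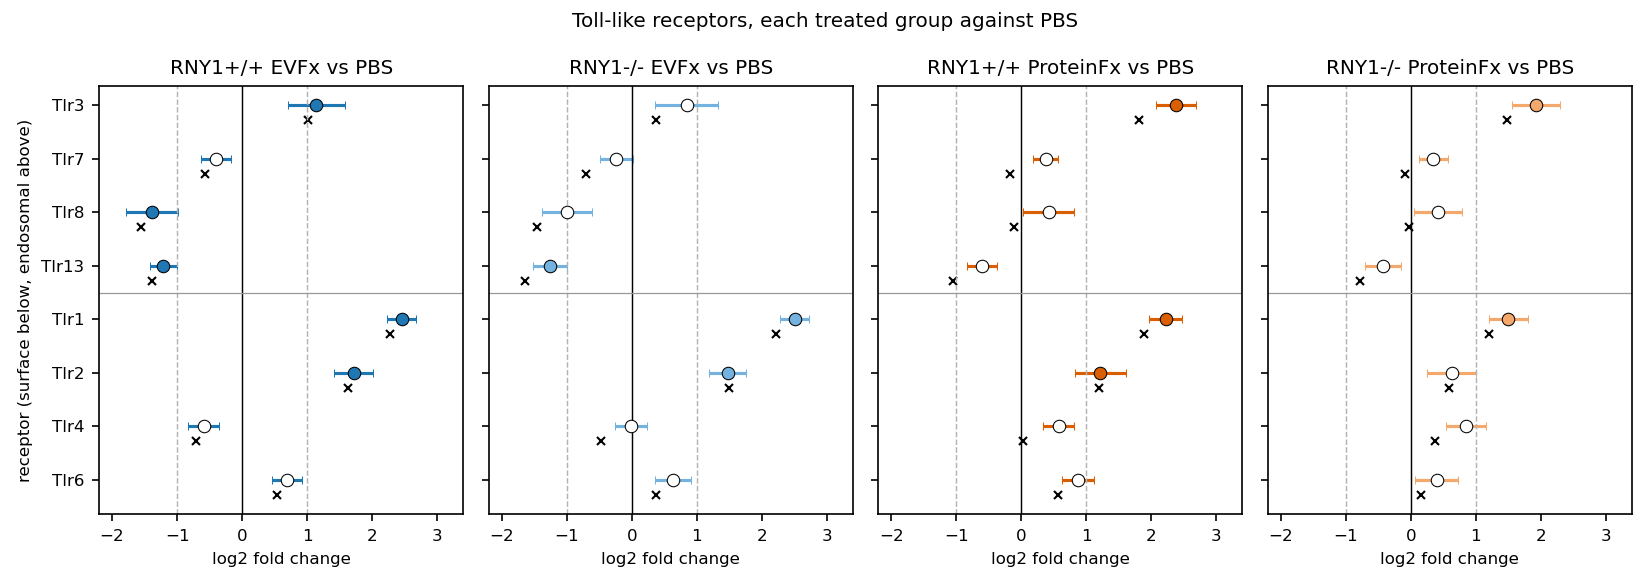
Log2 fold change of the 8 measurable receptors (horizontal axes) in each treated group against PBS, with 95% intervals from the standard error; filled circles passed the adjusted p and fold limits, open circles did not, dashed lines mark the fold limit, and crosses give the value with GC and length trends removed. Tlr1 lies right of the fold limit in all 4 panels, and Tlr7 and Tlr8 cross 0 between circle and cross in both ProteinFx panels.

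The contrast between the sets was seen in their medians. In RNY1+/+ EVFx against PBS the median log2 fold change was -0.80 over the 4 measurable endosomal receptors and 1.20 over the 4 surface receptors, beside -0.03 over all genes tested. In RNY1-/- EVFx the medians were -0.62 and 1.06, in RNY1+/+ ProteinFx 0.40 and 1.05, and in RNY1-/- ProteinFx 0.38 and 0.74, each beside -0.03 over all genes. With GC and length trends removed the endosomal medians of the ProteinFx groups changed sign, to -0.14 for RNY1+/+ and -0.06 for RNY1-/-, and that of RNY1-/- EVFx was -1.08. Neither set moved as a block: Tlr3 rose in RNY1+/+ EVFx while Tlr8 and Tlr13 fell, and Tlr4 was lower there while Tlr1 and Tlr2 rose.

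The share of endosomal receptors in the summed counts of all 10 TLRs puts the same values on a single scale. Counts here are molecules tagged at their 3′ ends, not scaled by transcript length, and the sums rest mostly on Tlr13 and Tlr1. PBS libraries held 68.1%, 69.7%, 61.1% and 68.7% endosomal counts. RNY1+/+ EVFx held 31.7%, 28.2%, 26.8% and 28.6% and RNY1-/- EVFx 30.4%, 30.7%, 25.0% and 24.9%. RNY1+/+ ProteinFx held 41.9%, 40.1%, 44.1% and 38.4% and RNY1-/- ProteinFx 53.6%, 53.9%, 42.5% and 43.8%. PBS lay above all treated groups and both vesicle groups below both protein groups, with no library crossing these lines. The protein groups overlapped each other, and the pairs of RNY1-/- ProteinFx libraries described above separated here too. The means were 66.9 ± 3.901% (SD, n = 4), 28.8 ± 2.03%, 27.7 ± 3.22%, 41.1 ± 2.45% and 48.4 ± 6.13% in that order.

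**Figure D3:**
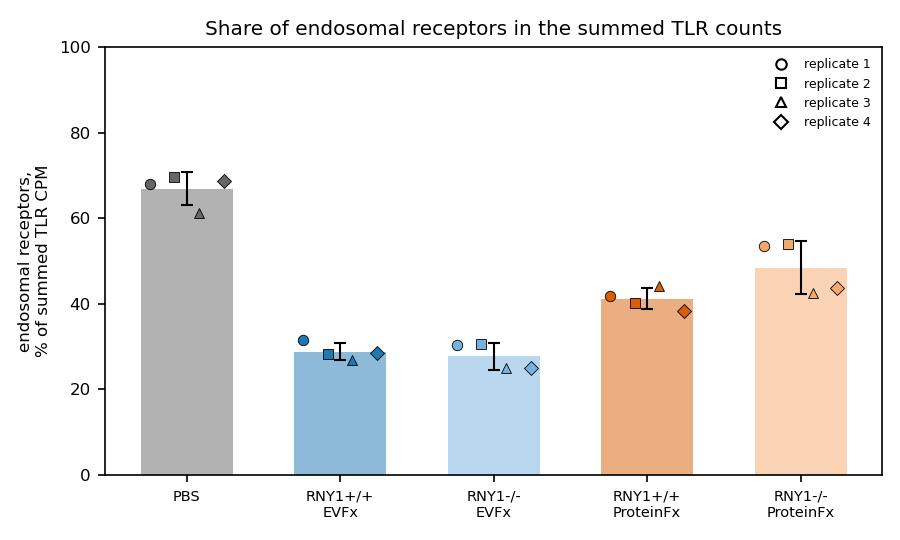
Percentage of the summed counts of all 10 receptors that came from the 5 endosomal ones (vertical axis, %), by group: bars are means of 4 libraries, whiskers the SD, and symbols the replicates. PBS libraries lie between 61.1% and 69.7%, vesicle libraries between 24.9% and 31.7%, and protein libraries between 38.4% and 53.9%.

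The fractions were also compared directly within a donor genotype, which asks how the receptor repertoire differs between vesicle and protein treatment; dose differs in kind between them and cannot be told apart from the fraction. In RNY1+/+ ProteinFx against RNY1+/+ EVFx, 3 of 8 receptors were higher (Tlr3, Tlr8 and Tlr4) and 0 lower, against 6.71% and 6.82% of genes. In all, 7 had an adjusted p under 0.05, against 63.3% of genes. Tlr8 was higher by 1.81 ± 0.20 (3.50-fold; adjusted p = 2.7e-06), Tlr3 by 1.23 ± 0.15 (2.35-fold; adjusted p = 5.7e-06) and Tlr4 by 1.18 ± 0.09 (2.26-fold; adjusted p = 3.4e-08). For these 3 receptors, all 4 protein libraries exceeded all 4 vesicle libraries. With GC and length trends removed Tlr8 stayed past the fold limit at 1.45, while Tlr3 (0.81) and Tlr4 (0.75) did not. Tlr7 and Tlr13 were higher by 0.78 and 0.61, and Tlr1 and Tlr2 lower at -0.23 and -0.49, with adjusted p between 1.3e-05 and 0.044 and below the fold limit. The median was 1.00 over the endosomal receptors, or 0.61 with the trends removed, and -0.01 over the surface receptors, or -0.17, beside -0.02 over all genes.

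In RNY1-/- ProteinFx against RNY1-/- EVFx, 2 of 8 receptors were higher (Tlr3 and Tlr8) and 0 lower, against 4.98% and 4.05% of genes. Here too 7 had an adjusted p under 0.05, against 29.2% of genes. Tlr8 was higher by 1.41 ± 0.19 (2.66-fold; adjusted p = 0.00011) and Tlr3 by 1.08 ± 0.21 (2.11-fold; adjusted p = 0.0017). The Tlr3 call was lost without RNY1-/- EVFx replicate 3 (0.98) or 4 (0.99), or without RNY1-/- ProteinFx replicate 2 (0.98). It was also lost with only RNY1-/- ProteinFx replicates 3 and 4 (0.98) and with counts thinned to the smallest library (0.95). Tlr1 was lower, with -0.999 ± 0.126 (adjusted p = 7.1e-05) just inside the fold limit. It passed the limit in 8 of 11 alternatives, among them DESeq2 (-1.01), GC and length trends removed (-1.01) and only RNY1-/- ProteinFx replicates 1 and 2 (-1.22), but stood at -0.84 with library totals and -0.79 with only replicates 3 and 4. It also passed without RNY1-/- EVFx replicate 2 (-1.02) or 3 (-1.02) or RNY1-/- ProteinFx replicate 3 (-1.10) or 4 (-1.04). Tlr2 was lower at -0.84 ± 0.14 (adjusted p = 0.00059), and Tlr7 (0.60), Tlr13 (0.85) and Tlr4 (0.86) were higher below the limit. With library totals Tlr13 (1.02) and Tlr4 (1.02) passed it, as did Tlr13 with only RNY1-/- ProteinFx replicates 1 and 2 (1.01) and Tlr4 with only replicates 3 and 4 (1.09). Endosomal receptors had a median of 0.97 and surface receptors of -0.53, beside 0.02 over all genes, so in both genotypes the endosomal median was higher after protein fractions.

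Comparing donors within a fraction asks how the receptors differ after fluid of RNY1-/- mice and after fluid of RNY1+/+ mice. The methods name GemPharmatech as the source of the knockout mice and JAX for all other mice, which were wild-type. Source colony may therefore differ together with genotype. The paper adds that more work must show if the Y RNA signals directly or by changing other molecules in the fluid. An effect of the absent RNY1 alone was not tested. In RNY1-/- EVFx against RNY1+/+ EVFx, 0 of 8 receptors were called in either direction by edgeR or by DESeq2, against 0.378% of genes higher and 1.98% lower. That balance over all genes turned with GC and length trends removed, from 39 higher and 204 lower to 60 higher and 36 lower. At an unadjusted p under 0.05 edgeR counted 2, Tlr2 and Tlr4. With an adjusted p under 0.05 there was 1, Tlr4, against 52.1% of genes, a share below the background. Tlr4 was higher with RNY1-/- fluid by 0.59 ± 0.08 (1.51-fold; adjusted p = 0.00023), higher in 4 of 4 libraries than in any RNY1+/+ EVFx library. Fold changes of this comparison followed GC content across genes with rho of -0.654, and with the GC and length trends removed the Tlr4 value was 0.23 (adjusted p = 0.027). Tlr3 then also passed the adjusted p, at -0.63 (0.039), against -0.28 (0.31) without that step, and at -0.57 (0.042) without RNY1-/- EVFx replicate 1. Tlr2, at -0.23 (0.060), passed with library totals (-0.30, 0.023) and without RNY1+/+ EVFx replicate 1 (-0.32, 0.018) or 3 (-0.27, 0.044). Tlr8, at 0.40 (0.11), passed without RNY1+/+ EVFx replicate 1 (0.55, 0.047) or RNY1-/- EVFx replicate 3 (0.51, 0.046).

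In RNY1-/- ProteinFx against RNY1+/+ ProteinFx, 0 of 8 receptors were called by edgeR or by DESeq2, against 0.659% of genes higher and 1.17% lower. At an unadjusted p under 0.05 edgeR counted 4, Tlr3, Tlr1, Tlr2 and Tlr6. With an adjusted p under 0.05 there was 1, Tlr1, against 5.57% of genes. Tlr1 was lower with RNY1-/- fluid at -0.71 ± 0.14 (1.63-fold lower; adjusted p = 0.0096), below every RNY1+/+ ProteinFx library in 4 of 4 libraries, and at -0.69 with GC and length trends removed. Tlr3, also without overlap between the groups, was at -0.44 ± 0.13 (adjusted p = 0.083), Tlr2 at -0.58 ± 0.19 (0.11) and Tlr6 at -0.45 ± 0.16 (0.14). Tlr3 passed the adjusted p with only RNY1-/- ProteinFx replicates 3 and 4 (-0.53, 0.042) or without its replicate 2 (-0.54, 0.045). Tlr2 did so with no filter on low counts (-0.55, 0.028), with 20 libraries fitted together (-0.58, 0.039) and with only RNY1-/- ProteinFx replicates 1 and 2 (-0.63, 0.034), as did Tlr13 with those replicates (0.36, 0.014, against 0.20 and 0.39). Tlr4, whose groups did not overlap either, was at 0.28 ± 0.13 (0.26), and with GC and length trends removed it passed the adjusted p at 0.33 (0.034), as with only RNY1-/- ProteinFx replicates 3 and 4 (0.51, 0.0094).

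An interaction test on the 16 treated libraries asked if the donor difference depends on the fraction. By edgeR and by DESeq2 0 of 8 receptors were called, against 5.33% of genes higher and 2.46% lower, and at an unadjusted p under 0.05 edgeR counted 1. With GC and length trends removed the all-gene counts went from 557 higher and 257 lower to 194 higher and 230 lower. The same receptor, Tlr1, was the 1 with an adjusted p under 0.05, against 33.0% of genes. Its donor difference was 0.06 in vesicle and -0.71 in protein fractions, and the difference between these was -0.77 ± 0.16 (adjusted p = 0.0040), or -0.62 (0.0061) with GC and length trends removed. For Tlr4 the value was -0.31 ± 0.16 (adjusted p = 0.13), 0.10 (0.56) with the trends removed, -0.54 (0.0015) with only RNY1-/- ProteinFx replicates 1 and 2 and -0.39 (0.041) without its replicate 3, so its sign and its adjusted p depended on these choices. Tlr13 stood at 0.25 ± 0.15 (adjusted p = 0.21), at 0.53 (0.045) with the trends removed and at 0.41 (0.016) with only RNY1-/- ProteinFx replicates 1 and 2.

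Each receptor had close companions in its pattern over the 20 libraries. By Pearson's r of log2 CPM among 7456 genes with a mean of at least 10 CPM, the nearest were Sod2 (0.994) and Lmo4 (0.992) for Tlr1, Fblim1 (0.985) and Lgals3 (0.980) for Tlr13, and Bcar3 (0.971) and Man2a1 (0.968) for Tlr4. They were Rgl1 (0.964) and Gm5431 (0.959) for Tlr3, Slc11a2 (0.963) and Ccrl2 (0.956) for Tlr2, and Sdcbp (0.961) for Tlr8. Tlr7 was nearest to the lysosomal protease gene Lgmn (0.958) and to Frmd4b (0.949), and Tlr6 had the weakest companions, Lcp2 (0.859) and Gm10134 (0.838). Among the receptors themselves the highest r joined Tlr1 with Tlr2 (0.893) and Tlr7 with Tlr8 (0.863), and the lowest Tlr1 with Tlr13 (-0.891). The libraries fall into 5 groups and share base composition effects, so these values describe group patterns and carry no p.

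Promoter sequences of the receptors were read from RefSeq in GRCm38.p6, as windows from 250 bases before to 50 bases after each annotated start. Of the 10 receptors 8 matched, with 10 windows, and those of Tlr4 and Tlr7 were missing. The NF-kB element, searched on both strands, was present in Tlr2 and Tlr3 and in 4.51% of all 32851 windows of 300 bases. The interferon regulatory factor (IRF) element GAAANNGAA was present in Tlr6 and Tlr8, and in 8.56% of windows. The STAT element TTCNNNGAA was present in Tlr1, Tlr6 and Tlr8 and in 8.298% of windows, and the PU.1 core GAGGAA in Tlr1, Tlr8, Tlr9 and Tlr13 and in 28.3%. Tlr1, the nearest in pattern to Tlr2 among the 8 receptors tested, had no NF-kB match in its windows. The letters below show NF-kB matches of Tlr2 and Tlr3 and IRF matches of Tlr6 and Tlr8. Capitals mark the match, which reads on the opposite strand in Tlr6 and Tlr8, and another NF-kB match of Tlr2 and another IRF match of Tlr6 overlap those printed. A match describes letters in a window and does not show binding.
Tlr2, chr3:83841763-83841790, minus strand: aggacacctGGGGAATTCCcacacggag
Tlr2, chr3:83841598-83841625, minus strand: cctgacctgGGGACATCCCcttccctca
Tlr3, chr8:45410573-45410600, minus strand: gttgtttctGGGAGTTTCCtgcttttga
Tlr6, chr5:64959258-64959284, minus strand: cttttctctTTCACTTTCtgtttgatg
Tlr8, chrX:167264379-167264405, minus strand: tcctctgaaTTCAGTTTCgaaattttt

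The accessory genes of the surface receptors moved separately from each other. Of 6 co-receptor genes 5 were tested, and Lbp, the lipopolysaccharide-binding protein, was too low. Cd14, which hands lipopolysaccharide to TLR4, rose in RNY1+/+ EVFx from 120 to 287 CPM (1.43; adjusted p = 4.8e-05). RNY1-/- EVFx held 159 to 184 CPM, below every RNY1+/+ EVFx library (267 to 329 CPM), and was called neither against PBS nor between donors. Cd14 was lower in ProteinFx than in EVFx, at -1.29 for RNY1+/+ and -1.27 for RNY1-/- donors. Cd36, a scavenger receptor that assists TLR2 and TLR6, fell in RNY1+/+ EVFx (-1.88), RNY1-/- EVFx (-1.38), RNY1+/+ ProteinFx (-1.45) and RNY1-/- ProteinFx (-1.06), from 2376 CPM in PBS to between 570 and 1079 CPM. The call in RNY1-/- ProteinFx was lost without PBS replicate 3 (-0.92) or without RNY1-/- ProteinFx replicate 1 (-0.97) or 2 (-0.97). Ly86, which pairs with CD180, was higher in ProteinFx than in EVFx by 1.31 for RNY1+/+ and 1.36 for RNY1-/- donors, the same order of fractions as Tlr4. Ly96, which encodes the TLR4 partner MD-2, was not called in any comparison, with 54.8 CPM in PBS and 55.4 to 64.2 CPM in the treated groups. Nor was Cd180, at 188 CPM in PBS and 130 to 156 CPM in the treated groups.

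Of 7 chaperones and trafficking factors of the endosomal receptors, 1, Slc15a4, was called by edgeR against PBS. A further 2 in RNY1+/+ EVFx (28.1% of all genes), 2 in RNY1-/- EVFx (35.8%), 3 in RNY1+/+ ProteinFx (33.9%) and 1 in RNY1-/- ProteinFx (21.4%) had an adjusted p under 0.05 within the fold limit, as did 4 between donors in EVFx (49.8%). Unc93b1, the escort of the endosomal TLRs, was read at 370, 409, 162 and 268 CPM in PBS and had means of 187 to 325 CPM in the treated groups, with PBS replicate 3 lowest in its group. It was not called in any comparison. The chaperones Hsp90b1, Cnpy3 and Cnpy4 and the adaptor subunit Ap3b1 were not called in any comparison either. Hsp90b1 had log2 fold changes of 0.40 to 0.69 against PBS, which in RNY1+/+ ProteinFx turned to -0.08 with GC and length trends removed. Slc15a4, a lysosomal transporter that TLR7 and TLR9 signalling needs, fell in RNY1-/- EVFx (-1.04), RNY1+/+ ProteinFx (-1.28) and RNY1-/- ProteinFx (-1.35), where 13.5%, 12.4% and 7.99% of all genes fell. With the trends removed the first 2 of these were -0.67 and -0.90, within the fold limit, and the RNY1-/- EVFx call was lost without PBS replicate 2 (-0.81) or RNY1-/- EVFx replicate 4 (-0.96). Tasl, the partner of SLC15A4, was higher in RNY1+/+ ProteinFx than in RNY1+/+ EVFx by 1.18, and by 0.77 with the trends removed. Slc15a4 was lower in the same comparison, at -1.03, and at -0.59 with the trends removed, and that call was lost without RNY1+/+ EVFx replicate 4 (-0.87) or RNY1+/+ ProteinFx replicate 2 (-0.97) or 4 (-0.93).

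A list of 10 lysosomal genes held proteases, nucleases and the transporter gene Slc29a3. In RNY1+/+ EVFx 1 rose and 2 fell (8.24% and 8.20% of all genes), and in RNY1-/- EVFx 0 rose and 3 fell (9.02% and 13.5%). In RNY1+/+ ProteinFx 1 rose and 2 fell (8.96% and 12.4%), and in RNY1-/- ProteinFx 2 rose and 1 fell (6.31% and 7.99%). Whether these counts differ from those shares was not tested. Pld3, an exonuclease that degrades ligands of the nucleic acid receptors, fell in RNY1+/+ ProteinFx from 162 to 27.2 CPM (-2.41; adjusted p = 0.00021). It also fell in RNY1-/- EVFx (-2.17), RNY1-/- ProteinFx (-1.90) and RNY1+/+ EVFx (-1.20). The last call was lost without PBS replicate 1 (-1.05, adjusted p = 0.056) or 2 (-0.93, 0.062), or without RNY1+/+ EVFx replicate 1 (-1.19, 0.053), 2 (-1.10, 0.064) or 3 (-1.10, 0.064).

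Downstream of the receptors, 3 of 19 adaptor and kinase genes rose in RNY1+/+ EVFx (8.24% of all genes), 2 in RNY1-/- EVFx (9.02%), 3 in RNY1+/+ ProteinFx (8.96%) and 0 in RNY1-/- ProteinFx (6.31%), and 0 fell. A further 6 (28.1% of all genes), 11 (35.8%), 8 (33.9%) and 5 (21.4%) in that order had an adjusted p under 0.05 within the fold limit. The largest called were Irak2, a kinase of the MYD88 complex, in RNY1+/+ EVFx (1.36; adjusted p = 5.1e-06) and Pik3ap1, the adaptor BCAP, in RNY1+/+ ProteinFx (1.39; adjusted p = 6.5e-06). Of the negative regulators, 5 of 8 tested rose in RNY1+/+ EVFx (8.24% of all genes) and 4 of 8 in RNY1-/- EVFx (9.02%). In RNY1+/+ ProteinFx 5 of 9 rose (8.96%) and in RNY1-/- ProteinFx 2 of 8 (6.31%). In both lists 0 fell, where 8.20%, 13.5%, 12.4% and 7.99% of all genes fell in the same order of groups. The gene tested in RNY1+/+ ProteinFx but not in the other groups is Socs1, which passed the filter against PBS through RNY1+/+ ProteinFx, so its rise there came with its entry and these counts rest on different genes. Socs1 was above the floor in 1 of 4 PBS libraries and averaged 9.17 CPM in RNY1+/+ ProteinFx. It is among the 5 counted there, but no exact fold is given and its test is not used as support. Tank, which rose in RNY1-/- ProteinFx by 1.41, was within the fold limit with GC and length trends removed, at 0.91. Zc3h12a, which encodes the RNase Regnase-1, rose by 2.61 in RNY1+/+ EVFx.

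Irf7, the interferon regulatory factor downstream of TLR7 and TLR9, rose by 2.36 in RNY1+/+ EVFx and 2.49 in RNY1+/+ ProteinFx. Of 6 transcription factors, 1 rose in RNY1+/+ EVFx (8.24% of all genes), 1 in RNY1-/- EVFx (9.02%), 3 in RNY1+/+ ProteinFx (8.96%) and 1 in RNY1-/- ProteinFx (6.31%). Rela, the p65 subunit of NF-kB, fell in RNY1-/- EVFx (-1.17), RNY1+/+ ProteinFx (-1.27) and RNY1-/- ProteinFx (-1.09), where 13.5%, 12.4% and 7.99% of all genes fell. After removal of GC and length trends these Rela values were within the fold limit, at -0.53, -0.63 and -0.50. The RNY1-/- EVFx call of Rela was lost without PBS replicate 2 (-0.98), and the RNY1-/- ProteinFx call without PBS replicate 1 (-0.98, adjusted p = 0.075), 2 (-0.93, 0.080) or 4 (-1.12, 0.052) or RNY1-/- ProteinFx replicate 3 (-0.995, 0.069) or 4 (-0.95, 0.084).

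Target genes of NF-kB and of interferon were read in the same comparisons. Of the NF-kB targets tested, 10 of 11 rose in RNY1+/+ EVFx (8.24% of all genes), 10 of 11 in RNY1-/- EVFx (9.02%), 9 of 9 in RNY1+/+ ProteinFx (8.96%) and 5 of 8 in RNY1-/- ProteinFx (6.31%). The Ccl3 call in RNY1+/+ ProteinFx was lost without PBS replicate 3 (0.95) or 4 (0.98) or RNY1+/+ ProteinFx replicate 4 (0.91). In RNY1-/- ProteinFx, Il1b could be tested in 5 of 8 fits with a library left out, and Ptgs2 in 7 of 8. Il12b and Cxcl1 were too low to test in both ProteinFx groups and Nos2 in RNY1-/- ProteinFx, so these counts rest on different genes. A gene near the floor in PBS enters the test only where the treated group holds it, which favours rises. Il12b, Nos2 and Il1b are such genes, so the counts that hold them are not read against the shares of all genes. Il12b, the p40 subunit of IL-12, stood at or under the floor in PBS and was at least 37.3-fold higher in RNY1+/+ EVFx, at 21.4 CPM, with the floor of 3 counts taken per library. Il1b, above the floor in 1 of 4 PBS libraries, averaged 39.6 CPM in RNY1+/+ ProteinFx, and no exact fold is given. With Il12b and Nos2 at their bounds, the median log2 fold change of the tested targets was 4.68 in RNY1+/+ EVFx (5.00 as fitted). It was 3.78 in RNY1-/- EVFx, 2.24 in RNY1+/+ ProteinFx and 1.24 in RNY1-/- ProteinFx. Genes near the floor in PBS, Il1b among them, enter these medians with fitted values, and the genes tested differ between groups. The medians are therefore not compared with each other.

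All 6 tested interferon targets rose in each of the 4 groups, against the same shares of all genes, with medians of 4.30, 4.47, 5.06 and 4.02 in RNY1+/+ EVFx, RNY1-/- EVFx, RNY1+/+ ProteinFx and RNY1-/- ProteinFx. Cxcl10 led them, at 5.15 in RNY1+/+ EVFx and 6.70 in RNY1+/+ ProteinFx. In ProteinFx against EVFx, 8 of 11 NF-kB targets were lower for RNY1+/+ donors (6.82% of all genes) and 10 of 11 for RNY1-/- donors (4.05%), while 2 of 6 interferon targets, Cxcl10 and Ifit1, were higher for RNY1+/+ donors (6.71%) and 1 of 6 lower for RNY1-/- donors (4.05%). Ifit1 was within the fold limit, at 0.86, with GC and length trends removed, and its call was lost without RNY1+/+ EVFx replicate 3 (0.98) or 4 (0.998) or RNY1+/+ ProteinFx replicate 4 (0.98). Among the NF-kB targets counted as lower, Il12b and Cxcl1, and Nos2 for RNY1-/- donors, were too low to test in ProteinFx against PBS. They entered these comparisons through EVFx, so their calls came with their entry. A difference between the 2 lists was not tested.

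Between donors, 5 of 72 tested list genes were lower past both limits in EVFx (1.98% of all genes) and 12 of 70 in ProteinFx (1.17%). By adjusted p alone, counting either direction, 46 (52.1%) and 20 (5.57%) list genes passed. In RNY1-/- ProteinFx against RNY1+/+ ProteinFx, 6 of 9 NF-kB targets (Tnf, Il1b, Cxcl2, Ccl3, Ccl4 and Nos2), 4 of 6 interferon targets (Cxcl10, Ifit1, Rsad2 and Mx1) and 2 of 9 negative regulators (Irak3 and Tnfaip3) were lower, beside 1.17% of all genes. Of these, Nos2 was too low to test in RNY1-/- ProteinFx against PBS and entered here through RNY1+/+ ProteinFx, so its call came with its entry. The counts that hold Nos2 or Il1b are not read against the share of all genes. Nos2, Ifit1 and Tnfaip3 lost their calls without RNY1+/+ ProteinFx replicate 4 (-1.51, -0.92 and -0.98) and without RNY1-/- ProteinFx replicate 2 (-1.72, -0.86 and -0.96). Ifit1 and Tnfaip3 also lost them without RNY1-/- ProteinFx replicate 1 (-0.84 and -0.97), Ifit1 and Nos2 without RNY1+/+ ProteinFx replicate 2 (-1.02 and -1.57) or 1 (-1.04 and -1.86), and Nos2 without RNY1-/- ProteinFx replicate 4 (-1.55). In RNY1-/- EVFx against RNY1+/+ EVFx, Tnf, Il1b and Cxcl1 were lower among 11 NF-kB targets, as were the TRIF gene Ticam1 (-1.03) and Rela (-1.08). With GC and length trends removed Tnf (-0.96), Ticam1 (-0.56) and Rela (-0.50) were within the fold limit. Without RNY1+/+ EVFx replicate 4 so were Ticam1 (-0.94), Rela (-0.94) and Cxcl1 (-0.83), and leaving out RNY1-/- EVFx replicates ended the calls of Cxcl1 (replicate 1, -0.91; 2, -0.97), Ticam1 (2, -0.90; 4, -0.97) and Rela (3, -0.99).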

How the data were processed

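Polyadenylated RNA of 20 mouse macrophage cultures was sequenced from 3′ ends. Per the labels, the authors trimmed reads with fastp 0.24.0, aligned them with STAR 2.7.11 to GRCm39 and counted molecules with featureCounts of Subread 2.1.1. The deposited table holds expected counts, fractional where reads map to several genes, and CPM that equal each count scaled to the library total.

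Counts were rounded and tested in R 4.3.3 with edgeR 4.0.16 (TMM scaling, quasi-likelihood test) on genes kept by filterByExpr and averaging 3 CPM or more in the compared libraries, with Benjamini-Hochberg adjustment over all genes. Genes were called at an adjusted p under 0.05 and a log2 fold change above 1 in size. Standard errors divide the log2 fold change by the root of its F statistic. Alternatives were DESeq2 1.42.0, library totals, other filters, 20 libraries fitted together, thinned counts, a block for replicate number, natural splines with 4 degrees of freedom for GC content and length (GENCODE M21), and leaving out libraries. The fits were tested on simulated data. Correlations used a prior count of 2.

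The receptors and lists were chosen with earlier results of these data known. All genes of the co-receptor and chaperone lists are named, and from the others the gene with the largest called change in either RNY1+/+ comparison with PBS and those called between donors or by the interaction. Lbp, Tlr5 and Tlr9 were too low to test.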

Additional observations from a re-analysis of the deposited data

Results flagged for a closer look

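In 4 of the 110 groups of 4 libraries examined (receptors, co-receptors, chaperones and summed sets), 1 library lay far from the other 3: its gap to the nearest, over the group's whole range, exceeded Dixon's 95% limit for 4 values, which chance passes in about 1 of 20 groups. Tlr13 in PBS had a ratio of 0.905, with replicate 3 at 168 CPM against 216 to 221 CPM. Ly96 in RNY1+/+ ProteinFx had 0.863, with replicate 3 at 53.3 CPM against 66.9 to 69.1 CPM. Cd36 in RNY1+/+ ProteinFx had 0.842, with replicate 3 at 1053 CPM against 642 to 707 CPM. Tasl in RNY1+/+ EVFx had 0.969, with replicate 4 at 18.4 CPM against 22.9 to 23.0 CPM.

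The donor difference itself differed between the protein and vesicle fractions by edgeR's interaction test with Benjamini-Hochberg adjustment over all genes, in 13 of 72 tested list genes past the adjusted p and fold limits (3 higher and 10 lower, beside 5.33% and 2.46% of all genes) and in 1 of 8 receptors, Tlr1, by adjusted p alone (33.0% of all genes). By adjusted p alone the list genes were 33 of 72. Nos2 was too low to test in RNY1-/- ProteinFx against PBS, and Il1b could not be tested there in every fit with a library left out. Both entered the interaction fit through the groups where they were higher. The counts that hold them are therefore not read against the shares of all genes, and the Nos2 value rests on a group near the floor. Negative log2 values mean that RNY1-/- against RNY1+/+ was lower in ProteinFx than in EVFx. Among receptors Tlr1 had -0.77. Of the interferon targets, Cxcl10 had -2.85, Ifit1 -1.71, Rsad2 -1.59, Mx1 -1.15 and Ifit2 -1.11. Of the NF-kB targets, Nos2 had -1.76, Ptgs2 -1.56 and Il1b -1.54. The negative regulators Tnfaip3 and Tank had -1.50 and -1.26. The value was positive for Pld3 (1.51), Rela (1.29) and Ticam1 (1.29). With GC and length trends removed Pld3 (0.92), Tank (-0.91), Ifit2 (-0.80), Ticam1 (0.76) and Rela (0.66) were within the fold limit, and Il1b and Ptgs2 had adjusted p of 0.080 and 0.074. Leaving out 1 library at a time ended the call in 11 of 16 cases for Il1b, 8 of 16 for Nos2, and 2 of 16 each for Ptgs2, Mx1 and Ifit2. Without RNY1+/+ ProteinFx replicate 4, Il1b was at -0.75 and Ptgs2 at -1.06. Over all genes the interaction calls numbered 814, but 1903 with only RNY1-/- ProteinFx replicates 1 and 2 and 101 with only replicates 3 and 4. Values of the list genes in those splits are not given here.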

How the results depend on the processing

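Without the fold limit, the receptors called against PBS were 8 (RNY1+/+ EVFx), 6 (RNY1-/- EVFx), 7 (RNY1+/+ ProteinFx) and 6 (RNY1-/- ProteinFx). Between donors they were 1 in EVFx, 1 in ProteinFx and 1 for the interaction, and between fractions 7 for RNY1+/+ and 7 for RNY1-/- donors. RNY1+/+ ProteinFx against RNY1+/+ EVFx kept 1 call of 3 with GC and length trends removed, and 1 when a block for replicate number was added to that correction, while the block alone kept 3. RNY1-/- ProteinFx against RNY1-/- EVFx had 4 calls in place of 2 with library totals or with only RNY1-/- ProteinFx replicates 1 and 2, and 1 with thinned counts, without RNY1-/- EVFx replicate 4 or without RNY1-/- ProteinFx replicate 2.

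Among values with an adjusted p under 0.05, removing GC and length trends turned the sign for Tlr7 in RNY1+/+ ProteinFx (-0.17, and -0.16 with the block) and RNY1-/- ProteinFx (-0.0889, and -0.10 with the block) against PBS, Hsp90b1 in RNY1+/+ ProteinFx against PBS (-0.0777, and -0.0752 with the block), Zc3h12a in RNY1-/- EVFx against RNY1+/+ EVFx (0.0604, and 0.0641 with the block) and, with the block only, Cd36 in RNY1+/+ ProteinFx against RNY1+/+ EVFx (-0.00714). Receptor values that had not passed also turned: Tlr8 in RNY1+/+ and RNY1-/- ProteinFx against PBS (-0.12 and -0.02), Tlr7 and Tlr1 between donors in EVFx (-0.13 and -0.06), Tlr7 between donors in ProteinFx (0.07), and the interactions of Tlr3 (0.30), Tlr7 (0.21) and Tlr4 (0.10). Tlr3 in RNY1+/+ EVFx against PBS was at 1.01 with the trends removed and 0.98 with the block added. The adjusted p of Tlr4 between donors in ProteinFx was 0.034 with the trends removed and 0.083 with the block added. With both, Tlr2 between donors in ProteinFx passed at -0.60 (0.021) and Tlr13 between donors in EVFx at -0.26 (0.026). The samples were taken to share only a replicate number: deviations from the group means had r over 0.1 in 21 of 40 same-number pairs (median 0.11) and in 37 of 120 other pairs (median -0.04). The block alone changed 1 count of receptors called, to 3 from 2 in RNY1-/- ProteinFx against RNY1-/- EVFx.

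Library totals in place of TMM shifted the median of all genes against PBS by -0.18, -0.24 and -0.17 in RNY1+/+ EVFx, RNY1-/- EVFx and RNY1+/+ ProteinFx, and by 0.17 in RNY1-/- ProteinFx against RNY1-/- EVFx and in the interaction. Genes called higher and lower went from 890 and 885 to 735 and 1235, from 968 and 1449 to 697 and 2147, from 971 and 1340 to 773 and 1853, from 519 and 422 to 710 and 320, and from 557 and 257 to 976 and 134. In RNY1-/- against RNY1+/+ ProteinFx they went from 69 and 122 to 101 and 99. Removing GC and length trends took RNY1-/- ProteinFx against PBS from 685 and 867 to 599 and 441, RNY1+/+ ProteinFx against PBS from 971 and 1340 to 846 and 881, and RNY1+/+ ProteinFx against RNY1+/+ EVFx from 701 and 712 to 572 and 454.

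The count of all genes called in RNY1-/- against RNY1+/+ EVFx was 243, but 96 with GC and length trends removed, 85 with the block added, 99 without RNY1+/+ EVFx replicate 4, 367 with filterByExpr alone and 631 with no filter. The interaction count of 814 became 424 and 448 with the trends removed without and with the block, 1903 and 101 with only RNY1-/- ProteinFx replicates 1 and 2 or 3 and 4, 539 and 483 without its replicate 1 or 2, and 1401 with no filter. RNY1-/- against RNY1+/+ ProteinFx went from 191 to 405 with only replicates 1 and 2, 116 without RNY1+/+ ProteinFx replicate 4 and 324 with no filter. RNY1-/- ProteinFx against PBS went from 1552 to 921 with only replicates 1 and 2. With no filter the counts against PBS were 3009, 3798 and 3498 in RNY1+/+ EVFx, RNY1-/- EVFx and RNY1+/+ ProteinFx, from 1775, 2417 and 2311, and between fractions 2563 and 1539 for RNY1+/+ and RNY1-/- donors, from 1413 and 941. Without the fold limit all-gene counts were 4807, 6257, 5981 and 3878 against PBS, 5379 and 583 between donors in EVFx and ProteinFx, 6608 and 3046 between fractions, and 3449 for the interaction.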
